A study of Sus scrofa with 13 samples.

Results

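Immediate early transcription factors were followed in pig livers that went through warm ischemia and reperfusion with or without an infusion of human cells. The members were the rows of the raw count table named FOS, FOSB, FOSL1, JUN, JUNB, JUND, EGR1, IER2, IER3 or MYC. Of these 10 genes, 9 had a row under their symbol, out of 35670 genes in the table, and all 9 were among the 16481 genes with enough reads to be tested. JUND had no row under its symbol and was not analysed here.

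The libraries were bulk messenger RNA from liver biopsies of female Yorkshire pigs, 13 in all. Baseline (2 libraries, replicates 1a and 2) was liver with no ischemia and no infusion. Ischemic controls (3) had 45 min of ischemia, with clamps on the hepatic artery, hepatic veins and portal vein, then 6 h of reperfusion, and were given no cells. After the same ischemia, 8 livers received 3 M (M for mega) human bone marrow-derived mesenchymal stromal cells (BM-MSC) per kg body weight. In 4 the cells went through the hepatic artery (arterial infusion) and in 4 through the portal vein (portal infusion). The cells were given early in reperfusion, and these livers were also sampled after 6 h of it. All animals were anesthetized and underwent laparotomy, and the BM-MSC came from cryopreserved human stocks, so the infusion was across species. Baseline liver was sampled before the clamps were placed, in animals that then underwent ischemia. The labels do not link either baseline library to a 6 h library of the same animal, and do not give the lobe of any library.

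Immediate early genes are transcribed within minutes of a growth factor, stress or cytokine signal, without the need for new protein synthesis, and their transcripts are usually short-lived. FOS and JUN family proteins pair through leucine zippers to form the transcription factor AP-1, EGR1 is a zinc finger factor induced through serum response factor, and MYC pairs with MAX to drive growth and ribosome production. In liver these genes are known for their response to partial hepatectomy and to reperfusion after ischemia.

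The total count on genes was between 18975413 and 35949178 per library with a median of 30260803. The number of genes detected was between 13581 and 20282, and portal infusion 1 (13581), portal infusion 4 (14264) and arterial infusion 1 (15460) had the fewest. Mitochondrial genome genes took between 4.51% and 22% of the counts, the highest share being in arterial infusion 2. Hepatocyte markers were present in every library at a summed level of 1159540 normalised counts or more, over 14 matched genes. A normalised count is the read count divided by the size factor of its library, which evens out depth; it is not divided by transcript length, so levels were compared between livers and not between genes. In bulk tissue, fewer cells of a type and less RNA per cell cannot be told apart.

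Ischemic controls stood above baseline in 8 of the 9 members by fitted log2 fold change, with a median of 1.11, against a median of 0.00 over all genes tested. FOSL1, FOSB and FOS had the largest differences and MYC was the exception. The test was edgeR's quasi-likelihood F-test, with p-values adjusted by Benjamini-Hochberg across every gene tested. None of the 9 passed 0.05 in it (edgeR, Benjamini-Hochberg adjusted p from 0.978 to 0.980), and 0% of all genes did. Without adjustment 2 members, FOSL1 and JUNB, were under 0.05, beside 4.37% of all genes. In 3 members, FOS, FOSB and FOSL1, every control was above both baseline livers, beside 14.8% of all genes. That count became 5 without baseline 2 and 7 without ischemic control 3. Groups with fewer livers separate more easily. The share of all genes was not counted in those settings, so 5 and 7 cannot be set against 14.8%. The median of the members was 0.70 without baseline 1a and 1.63 without baseline 2. By DESeq2 fitted to these 5 libraries alone FOSL1 passed (log2 fold change 3.55, adjusted p = 0.00359), in a fit that called 168 genes, and no other member did.

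Taking all 11 livers at 6 h together against baseline, 7 of 9 members were higher with a median log2 fold change of 0.47, against -0.01 over all genes. Again 0 members passed (edgeR, Benjamini-Hochberg adjusted p from 0.860 to 0.991), and 0 by DESeq2. FOSL1 was the 1 member under an unadjusted 0.05, beside 4.78% of all genes, and the 1 member whose 11 livers at 6 h all stood above baseline, beside 3.3% of all genes. The median of the members was 0.15 without baseline 1a and 1.05 without baseline 2. It was 0.32 without ischemic control 2, and the number of higher members was 5 without arterial infusion 2.

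By fitted fold change, markers of blood cells also stood higher in controls than at baseline, though the lymphocyte and erythroid sums of the groups overlapped. All 9 tested neutrophil markers were higher in controls (median log2 fold change 1.62), as were all 9 lymphocyte markers (0.68) and all 4 tested erythroid markers (1.96). In edgeR 2, 1 and 1 of them were under an unadjusted 0.05, beside 4.37% of all genes, and 0 passed adjustment. The summed normalised count of the 9 matched lymphocyte markers, of 11 listed, was 978 to 1278 at baseline, 768 to 3341 in controls, 1019.7 to 1811 after arterial and 1285 to 3474 after portal infusion. That of the 5 matched erythroid markers, of 7 listed, was 1012 to 1871 at baseline, 1378 to 29263 in controls, 2305 to 13765 after arterial and 1010.3 to 18156 after portal infusion. CD2 and HBM were at 0 in 1 library each and SLC4A1 in 8, while the T cell genes CD3D and CD3E and the globin gene HBB were detected in all 13. The part of these markers in the members' values was not tested.

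**Figure D1:**
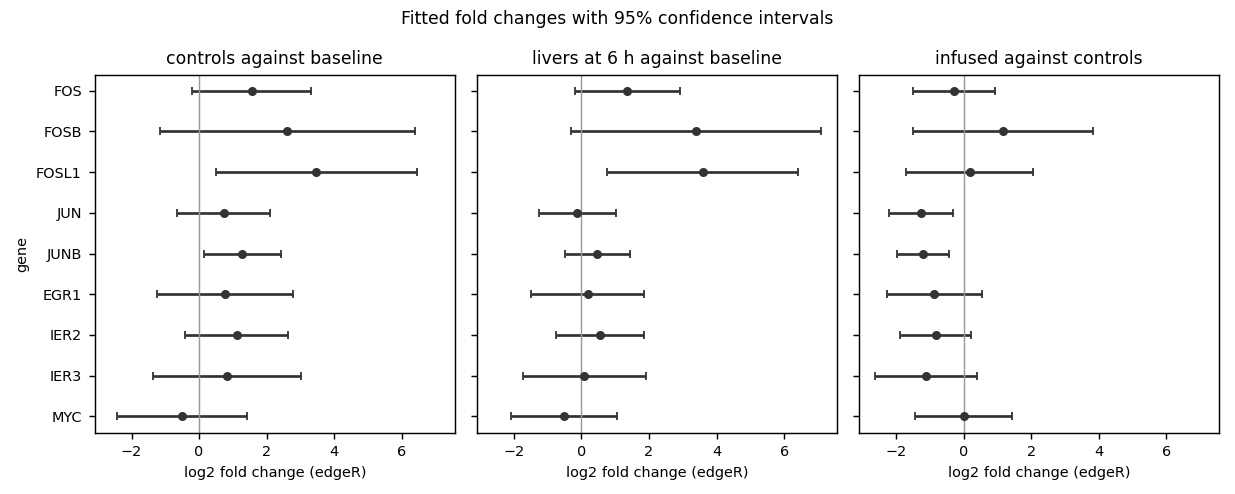
Fitted log2 fold change of each member (x axis, edgeR, all 13 libraries in 1 fit) with its 95% confidence interval in 3 comparisons, genes on the y axis. The interval lay above 0 for FOSL1 and JUNB in controls against baseline and for FOSL1 in all livers at 6 h, and below 0 for JUN and JUNB in infused livers against controls; no adjusted p passed 0.05.

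FOS encodes the founding FOS family subunit of AP-1. Its normalised count was 622 and 795 at baseline, 2461, 2226 and 1540.0 in ischemic controls 1 to 3, 535, 4251, 474 and 3099 in arterial infusion 1 to 4, and 1916, 1581, 585 and 1781 in portal infusion 1 to 4. Each control stood above both baseline livers, whereas arterial infusion 1 and 3 and portal infusion 3 lay below baseline. The controls averaged 2076 ± 479 (SD, n = 3) and baseline 709 ± 122 (n = 2), a log2 fold change of 1.55 ± 0.82 (SE, edgeR quasi-likelihood, Benjamini-Hochberg adjusted p = 0.978). The exact two-sided permutation test on log2 values gave p = 0.1, the smallest that 3 against 2 livers allow.

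FOSB, a paralog of FOS that is usually induced later and reaches lower levels, had the widest spread of the members. Its normalised count was 28.5 and 82.3 at baseline and 133, 809 and 105 in ischemic controls. It was 23.2, 6588, 1023 and 69.2 after arterial infusion and 49.1, 379, 564 and 204 after portal infusion. From the lowest to the highest of the 11 livers at 6 h FOSB differed 284-fold, and arterial infusion 2 stood far above every other liver. The controls exceeded both baseline livers (log2 fold change 2.61 ± 1.76 SE), with an exact permutation p of 0.2. That difference was 1.14 without ischemic control 2. Between arterial and portal infusion the log2 difference was 2.65 ± 1.29 (edgeR quasi-likelihood, Benjamini-Hochberg adjusted p = 1.00), and without arterial infusion 2 it was 0.35. The infused livers against controls gave 1.17 with all libraries and -0.0063 without arterial infusion 2.

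FOSL1 encodes FRA1, a FOS family subunit without the transactivation domain of FOS, known as a target of AP-1 itself. At baseline it had few reads, 22 and 19, with exact 95% Poisson intervals of 13.8 to 33.3 and 11.4 to 29.7, which cover counting error only. In normalised counts it was 17.0 and 20.0 at baseline, 41.9, 331 and 259 in ischemic controls, 587, 207, 53.5 and 119 after arterial infusion, and 812, 59.8, 59.2 and 65.0 after portal infusion. All 11 livers at 6 h were above both baseline livers. Their mean was 236 ± 253 (SD, n = 11) against 18.5 ± 2.17 (n = 2), a log2 fold change of 3.59 ± 1.33 (SE, edgeR quasi-likelihood, Benjamini-Hochberg adjusted p = 0.860). The exact two-sided permutation test gave p = 0.0256, unadjusted for the 54 such tests over 9 members and 6 comparisons, the smallest possible being 0.0128. Leaving out any 1 library kept it between 2.95 and 3.75. The highest values were in portal infusion 1 and arterial infusion 1, both among the 3 libraries with the fewest genes detected, and the part of that in the FOSL1 values was not tested. Summed neutrophil markers (10 of 15 matched, MPO at 0 in 9 libraries and PGLYRP1 in 2) were 1476 to 1599 at baseline, 1942 to 12671 in controls, 1175 to 9689 after arterial and 1472 to 3861 after portal infusion. They were highest in ischemic control 2 and next in arterial infusion 1. Portal infusion 1, with the highest FOSL1, had 3861, and arterial infusion 4, with FOSL1 at 119, had 8041. The part of these markers in the FOSL1 values was not tested.

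**Figure D2:**
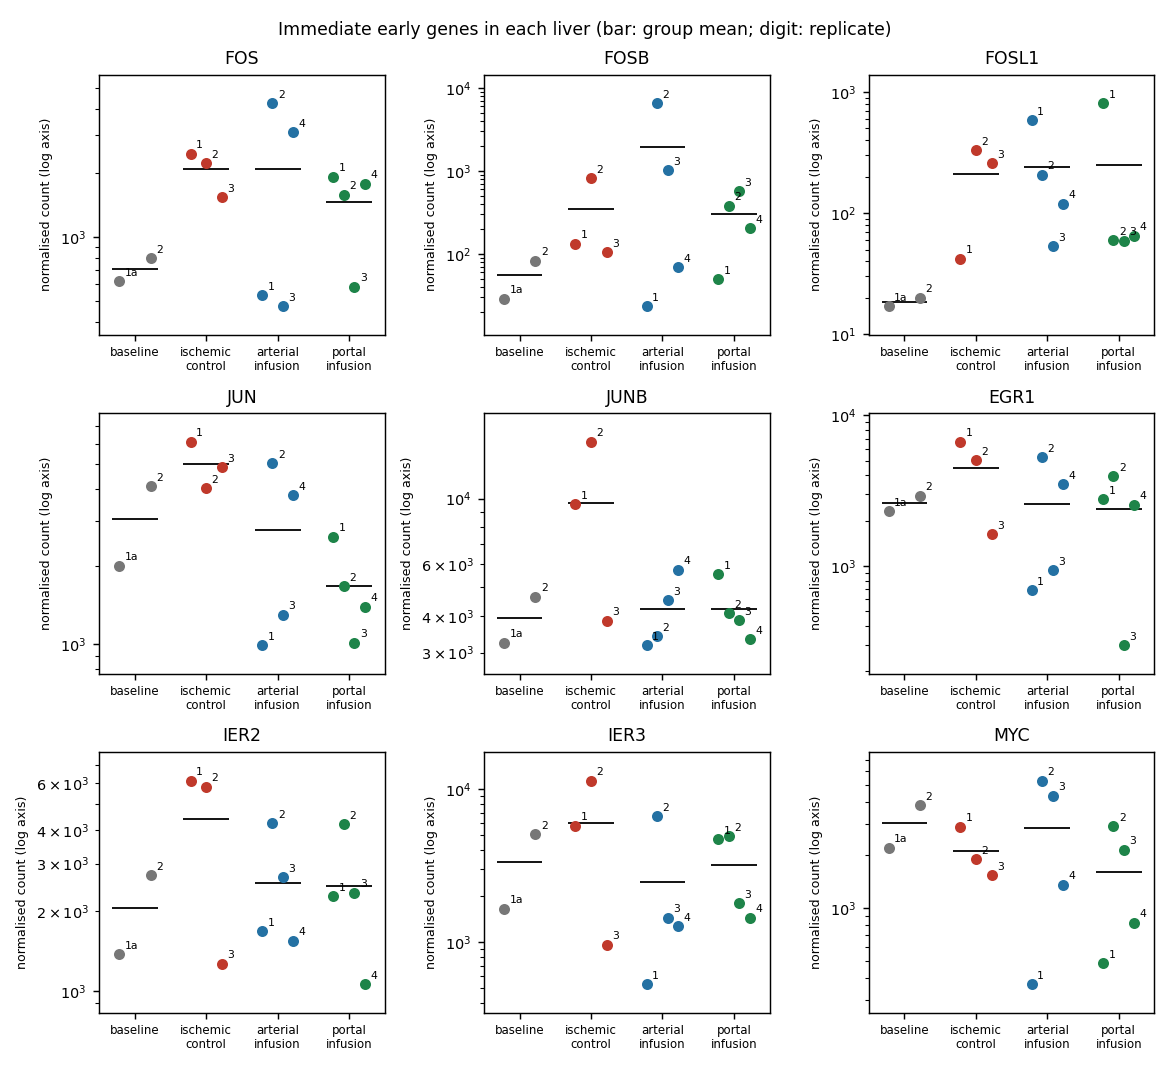
Normalised count (y axis, log scale, own range in each panel) of each member in each library by group; a point is 1 liver with its replicate number and a bar is the group mean. FOSL1 is the panel in which all 11 livers at 6 h sit above the 2 baseline livers, and FOSB spans 23.2 to 6588 within arterial infusion.

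JUN, the AP-1 subunit that can also pair with itself, was at 2008 and 4087 at baseline, 6088, 4019 and 4848 in ischemic controls, 987, 5039, 1296 and 3785 after arterial infusion, and 2601, 1673, 1009 and 1395 after portal infusion. Controls and baseline overlapped, since ischemic control 2 lay below baseline 2. Every portal liver was below every control, and of the 8 infused livers arterial infusion 2 was the 1 liver inside the range of the controls. Portal infusion averaged 1670 ± 678 (SD, n = 4) and controls 4985 ± 1042 (n = 3), a log2 fold change of -1.64 ± 0.53 (SE, edgeR quasi-likelihood, Benjamini-Hochberg adjusted p = 1.00). The exact permutation p was 0.0571, against a smallest possible value of 0.0286. Leaving out any 1 of their libraries, that difference stayed between -1.88 and -1.43.

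JUNB, a JUN family subunit that can restrain JUN, was at 3247 and 4643 at baseline and 9588, 15588 and 3852 in ischemic controls. After arterial infusion it was 3180.0, 3418, 4513 and 5744, and after portal infusion 5540.2, 4084, 3863 and 3333. Ischemic controls 1 and 2 were the 2 highest of the 13 libraries, while ischemic control 3 lay between the baseline livers and among the infused ones. By the SD pooled over the groups JUNB was the steadiest member, at 0.57 on the log2 scale. The median of the 10210 tested genes with a mean normalised count of at least 100 was 0.65. Within the controls alone JUNB differed 4.05-fold, more than JUN (1.51), FOS (1.60) and MYC (1.89) and less than the other members. Controls against baseline gave a log2 fold change of 1.28 ± 0.53 (SE, edgeR quasi-likelihood, Benjamini-Hochberg adjusted p = 0.978), with an exact permutation p of 0.3. It was 0.80 without ischemic control 2.

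EGR1, the zinc finger factor, was at 2317 and 2919 at baseline, 6653, 5020.4 and 1617 in ischemic controls, 692, 5256, 936 and 3482 after arterial infusion, and 2781, 3934, 298 and 2549 after portal infusion. Ischemic controls 1 and 2 and arterial infusion 2 were the 3 highest livers, and portal infusion 3 was the lowest of all. The livers at 6 h lay on both sides of baseline, 5 above it, 4 below it and 2 within it. Their log2 fold change against baseline was 0.18 ± 0.79 (SE), with a 95% interval from -1.50 to 1.87.

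IER2, a short early gene encoding a nuclear protein, was at 1378 and 2715 at baseline and 6122, 5814 and 1268 in ischemic controls. It was 1677, 4240.4, 2666 and 1544 after arterial infusion and 2268, 4221, 2335 and 1064 after portal infusion. IER3, known for its part in cell survival under stress, was at 1651 and 5035 at baseline, 5732, 11288 and 960.4 in ischemic controls, 531, 6598, 1441 and 1264 after arterial infusion, and 4687, 4885, 1792 and 1443 after portal infusion. At 6 h both genes had their 4 highest values in ischemic controls 1 and 2, arterial infusion 2 and portal infusion 2, and both had ischemic control 3 below baseline. Controls against baseline gave log2 fold changes of 1.11 ± 0.72 for IER2 and 0.83 ± 1.02 for IER3 (SE), with groups that overlapped. For IER3 the difference was 0.04 without ischemic control 2 and 1.78 without baseline 2, and for IER2 it was 0.70 without baseline 1a.

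MYC was at 2209.9 and 3860.0 at baseline, 2897, 1902 and 1535 in ischemic controls, 369, 5307, 4351 and 1359 after arterial infusion, and 485, 2912, 2153 and 826 after portal infusion. It was the member that stood lower in controls than at baseline, by -0.51 ± 0.90 on the log2 scale (SE, 95% interval -2.43 to 1.40), and the groups overlapped. At 6 h, 7 of 11 livers were below both baseline livers, and 2 were above them, arterial infusion 2 and 3. The lowest values were in arterial infusion 1 and portal infusion 1, the 2 livers with the highest FOSL1.

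**Figure D3:**
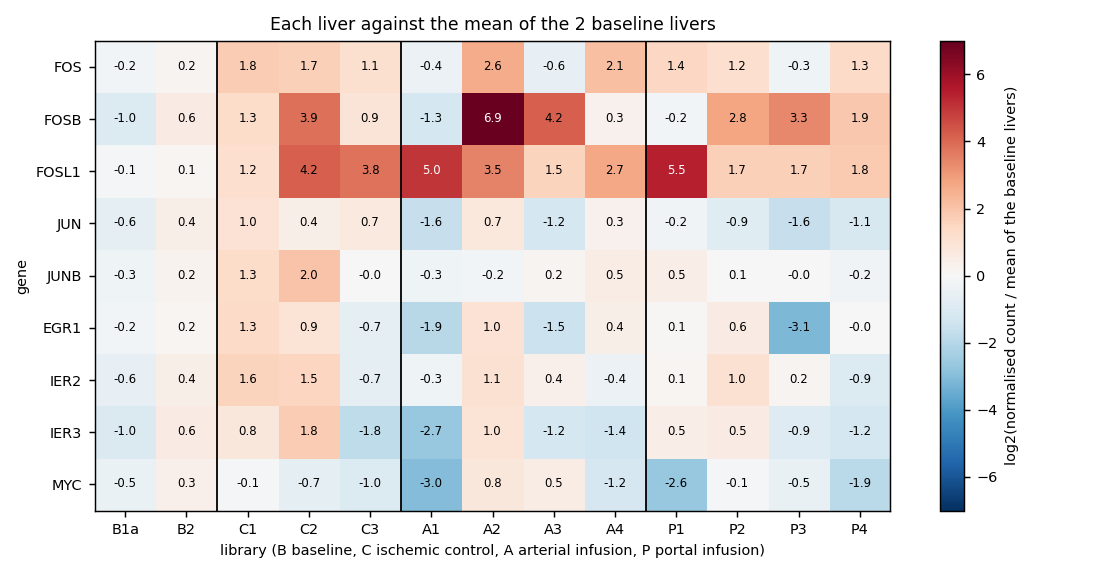
Log2 of each liver's normalised count over the mean of the baseline livers, genes in rows and the 13 libraries in columns (B baseline, C ischemic control, A arterial infusion, P portal infusion). FOSL1 is positive in all 11 livers at 6 h, while arterial infusion 1 combines high FOSL1 with low MYC, IER3 and EGR1.

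Against the ischemic controls, the 8 infused livers were lower in 6 of 9 members, with a median log2 fold change of -0.83, against -0.02 over all genes. The median was -0.32 without ischemic control 2, -0.40 without ischemic control 1 and -1.28 without ischemic control 3. JUN, IER3, JUNB, EGR1, IER2 and FOS were the 6, and FOSB (1.17 ± 1.25 SE), FOSL1 (0.18 ± 0.88) and MYC (0.01 ± 0.67) had fitted values above 0. No member passed (edgeR, Benjamini-Hochberg adjusted p = 1.00 for each of the 9), nor by DESeq2, and 0% of all genes passed in edgeR. JUN and JUNB were under 0.05 without adjustment, beside 2.14% of all genes. JUN differed by -1.26 ± 0.44 and JUNB by -1.21 ± 0.36 (SE), each with an exact permutation p of 0.0364, unadjusted. The infused livers averaged 4209 ± 986 for JUNB (SD, n = 8) and the controls 9676 ± 5869 (n = 3). For JUNB the difference was -0.73 without ischemic control 2 and -1.63 without ischemic control 3. No member had infused livers that were all below the controls, beside 0.34% of all genes. Leaving out ischemic control 3 made the count 2 and leaving out arterial infusion 2 made it 1. The share of all genes was not counted in those settings, where fewer livers separate more easily.

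Split by route, arterial infusion was lower than controls in 6 of 9 members (median -0.80) and portal infusion in 8 of 9 (median -0.85). Without ischemic control 1 these medians were -0.33 and -0.47, without ischemic control 2 they were -0.50 and -0.53, and without ischemic control 3 they were -0.89 and -1.33. The arterial median was -0.53 without arterial infusion 3. Unadjusted p-values under 0.05 were found for JUNB after arterial infusion, beside 1.57% of all genes, and for JUN and JUNB after portal infusion, beside 2.79%. JUNB differed from controls by -1.19 ± 0.43 after arterial and by -1.23 ± 0.43 after portal infusion (SE), and the 2 comparisons share the 3 controls. Without ischemic control 2 these were -0.71 and -0.75. No member had groups that did not overlap after arterial infusion, beside 1.57% of genes lower in every arterial liver, and JUN was the 1 such member after portal infusion, beside 2.33%. Without ischemic control 3 that portal count was 6, with fewer livers to separate. The share of all genes was not counted in that setting, so 6 cannot be set against 2.33%. Arterial against portal infusion left 0 members under an unadjusted 0.05, beside 2.4% of all genes, with a median of 0.14. For JUNB the arterial and portal livers differed by 0.04 on the log2 scale, with a 95% interval from -0.81 to 0.88. In these 3 comparisons 0 members and 0% of all genes passed after adjustment in edgeR, and 0 members did by DESeq2.

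Macrophage markers, like JUN and JUNB, stood lower in infused livers than in controls by fitted fold change. The summed normalised count of the 11 matched markers was 38969 to 55486 at baseline, 62514 to 141937 in ischemic controls, 44416 to 53153 after arterial and 45945 to 53039 after portal infusion. The highest sum was in ischemic control 2, the liver with the highest JUNB but the lowest JUN of the controls (4019). Arterial infusion 2 had the lowest sum at 6 h (44416), with JUN at 5039, inside the range of the controls. Of the 11 markers 10 were lower in infused livers than in controls by fitted fold change. In edgeR 5 had an unadjusted p under 0.05, beside 2.14% of all genes, and none passed adjustment. TIMD4 and MSR1 were at 0 in 1 library each, and the others were detected in all 13. The part of these markers in the JUN and JUNB values was not tested.

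Within groups 8 of the 9 members had a spread above the median gene. Among the tested genes with a mean normalised count of at least 100, the pooled within-group SD of the log2 value was smaller than that of FOSB (2.45) in 98.3%, of FOSL1 (1.56) in 93.7%, of IER3 (1.39) in 91.6% and of EGR1 (1.38) in 91.4%. MYC (1.27) and FOS (1.08) stood above 89.3% and 83.4%, and IER2 (0.89) and JUN (0.79) above 73.1% and 64.4%. JUNB was the exception, with 39.5% of genes below it. As a mean over the 9 members of the level standardised across the 13 libraries, ischemic control 2 (1.10), arterial infusion 2 (1.00) and ischemic control 1 (0.77) were highest, and arterial infusion 1 (-1.01) was lowest, below baseline 1a (-0.67). The 3 controls therefore did not lie together, since ischemic control 3 was at -0.19. Arterial infusion 2, which had the highest FOS, FOSB and MYC of all libraries, was also the library with 22% mitochondrial counts, and the part of that in its values was not tested.

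Ratios of reads between 2 members in the same liver do not depend on the size factor. The pairs given here were chosen after their values were seen. For every FOS read there were 2.16 FOSB reads in arterial infusion 3, 1.55 in arterial infusion 2 and 0.964 in portal infusion 3. Ischemic control 2 (0.363) and portal infusion 2 (0.240) came next, and the other 8 libraries lay between 0.0223 and 0.114, with both baseline livers among them. Each of the 3 groups at 6 h thus held a liver or livers above the baseline range of 0.0458 to 0.103 and a liver or livers within or below it. Among the controls only ischemic control 2 was above it. The log2 difference of the livers at 6 h from baseline was 1.28 (exact permutation p = 0.513).

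For every FOS read there were 1.10 FOSL1 reads in arterial infusion 1 and 0.424 in portal infusion 1, against 0.0273 and 0.0252 at baseline. Ischemic controls 2 and 3 had 0.149 and 0.168, and ischemic control 1 had 0.0170, the lowest of the 13. MYC reads per FOSL1 read were 130.2 and 193 at baseline and lower in each of the 11 livers at 6 h, from 81.3 in arterial infusion 3 to 0.628 in arterial infusion 1 and 0.597 in portal infusion 1. The log2 difference in that ratio was -3.78 (exact permutation p = 0.0385, unadjusted for the other ratios and comparisons). With 1 library left out in turn it stayed negative, and the exact permutation p was over 0.05 in 8 of 13 cases. Because the pair was picked after seeing that FOSL1 was higher in all 11 livers, this p is no separate test. The ratios of JUN to JUNB and of EGR1 to JUNB gave exact permutation p = 0.410 and 0.487 at 6 h against baseline.

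**Figure D4:**
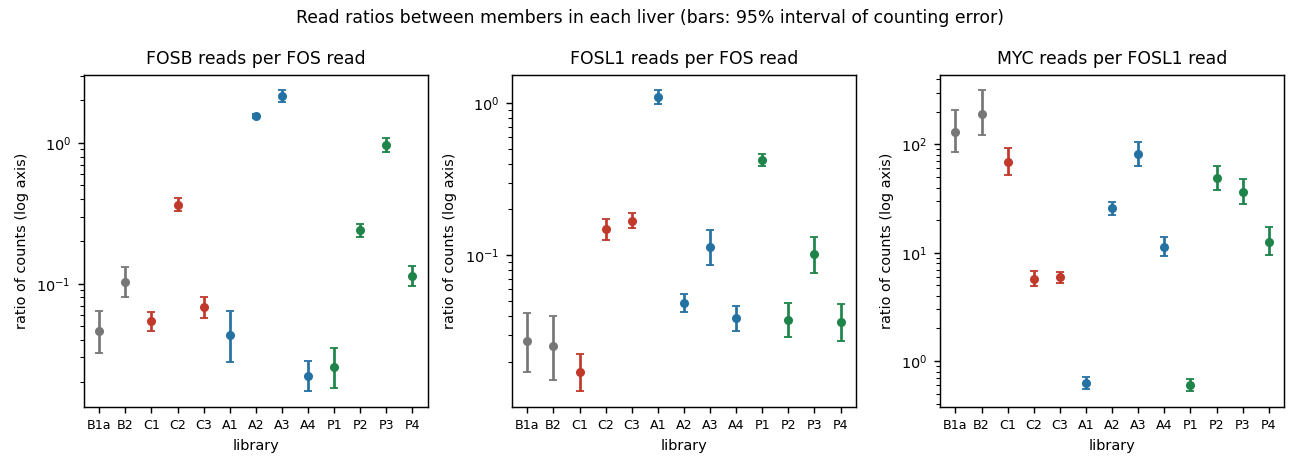
Reads of 1 member per read of another (y axis, log scale) in each of the 13 libraries, with bars for the exact 95% interval of counting error. MYC per FOSL1 is lower in every liver at 6 h than in both baseline livers, and the FOSB and FOSL1 ratios to FOS are high in different livers.

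Over the 11 livers at 6 h, 36 pairs of members were correlated on log2(normalised count + 1), with a median Pearson r of 0.36, and 32 of 36 were positive. After Benjamini-Hochberg adjustment over the 36 pairs, 5 passed 0.05 in a permutation test with 100000 resamples. FOS, JUN and EGR1 went together. FOS with EGR1 had r = 0.88 (Spearman's rho 0.85, permutation adjusted p = 0.0178 and 0.0326), FOS with JUN r = 0.82 (rho 0.77, adjusted p = 0.0178 and 0.0557), and JUN with EGR1 r = 0.76 (rho 0.83, adjusted p = 0.0410 and 0.0340). FOSB went with MYC (r = 0.83, rho 0.85, permutation adjusted p = 0.0178 and 0.0326) and IER2 with IER3 (r = 0.84, rho 0.80, adjusted p = 0.0206 and 0.0423).

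Without the 2 livers farthest from the median of the first gene of each pair, r was 0.88 for FOS with EGR1, 0.74 for FOS with JUN, 0.58 for JUN with EGR1, 0.69 for FOSB with MYC and 0.75 for IER2 with IER3. On deviations from the group means, r was 0.87, 0.93, 0.77, 0.85 and 0.86 in the same order. Of the 16480 other tested genes, 2 had an r with FOS as high as that of EGR1, counting EGR1 itself, and 58 had an r with FOSB as high as that of MYC. The number of pairs that passed was 2 without ischemic control 2, 2 without arterial infusion 1 and 3 without arterial infusion 2. FOSL1 was correlated with none of the others past the adjustment. Its r with MYC was -0.62 (rho -0.63, permutation adjusted p = 0.176 and 0.192), and -0.09 without the 2 farthest livers, so that relation rested on those livers. FOSL1 with FOS had r = 0.10 (rho 0.11, permutation adjusted p = 0.869 and 0.847).

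**Figure D5:**
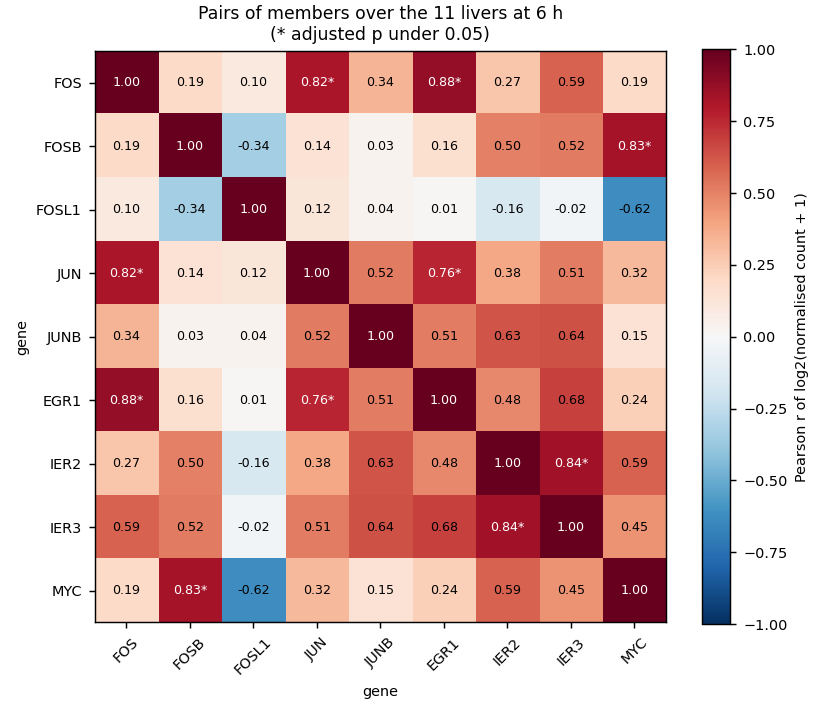
Pearson r between the 9 members over the 11 livers at 6 h, genes on both axes, with an asterisk where the permutation p adjusted over 36 pairs was under 0.05. The 5 marked pairs are FOS, JUN and EGR1 with each other, FOSB with MYC, and IER2 with IER3, and FOSL1 with MYC has the lowest r, -0.62.

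The partners and antagonists of AP-1 and the wider early response were read from lists. Of 13 other AP-1 and related leucine zipper genes tested, 7 were higher in controls than at baseline (median log2 fold change 0.23), 3 with an unadjusted p under 0.05, beside 4.37% of all genes, and 0 passing adjustment in edgeR. MAFF, a small MAF protein, was at 476 to 686 at baseline and 1225 to 2627 in controls (log2 fold change 1.81 ± 0.60 SE). JDP2, a repressor that pairs with JUN, was at 42.4 to 90.7 at baseline and 112 to 280.2 over the 11 livers at 6 h, all of them above baseline (1.46 ± 0.57). It was the 1 such gene of the 13, beside 3.3% of all genes. FOSL2, the remaining FOS family gene, was at 474 to 535 at baseline and 702 to 1704 in controls (1.22 ± 0.62).

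Of 40 other early response genes tested, 32 were higher in controls than at baseline with a median of 0.60, and 31 were lower in infused livers than in controls with a median of -0.33, 0 passing adjustment in edgeR in either comparison. Unadjusted, 7 were under 0.05 and higher in controls, beside 4.37% of all genes under 0.05 in either direction, and 4 were under 0.05 and lower after infusion, beside 2.14%. In 12 of the 40 every control was above baseline, beside the 14.8% of all genes given above. NR4A1, an orphan nuclear receptor, was at 77.9 to 276 at baseline and 453 to 1601 in controls (2.50 ± 0.70), and differed by -1.18 ± 0.45 in infused livers against controls. NR4A3, of the same family, was at 6.94 to 54.9 at baseline and 61.6 to 519 over the livers at 6 h. NFKBIA, the inhibitor of NF-kappa B, was at 609 to 727 at baseline and 978 to 4290.2 at 6 h, again without overlap. SGK1, a kinase induced by glucocorticoids, went the other way, from 13864 to 16073 at baseline to 1563 to 9757 at 6 h (-1.37 ± 0.55). Of the 40 genes, 3 were higher and 1 was lower at 6 h without overlap, beside 3.3% of all genes higher. The share of all genes lower at 6 h without overlap was not counted.

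Upstream of these genes, 14 of 31 receptors, ligands and kinases were higher in controls (median -0.09), and HBEGF, a ligand of the EGF receptor, was at 49.4 to 96.0 at baseline and 98.1 to 1170 over the livers at 6 h (2.32 ± 0.89). Of 18 feedback inhibitors, 15 were higher in controls (median 0.36). DUSP1, a phosphatase of MAP kinases, was at 1766 to 1789 at baseline and 3938 to 24585 in controls (2.58 ± 0.93). Of 22 AP-1 targets tested, 15 were higher in controls (median 0.63). VEGFA, on the same list, was lower in all 11 livers at 6 h, at 958 to 4603 against 4769 to 5769. At 6 h, 1 of the 31 upstream genes was higher without overlap and 2 were lower. Of the 22 AP-1 targets 1 was higher and 1 was lower. Over all genes 3.3% were higher without overlap, and the share lower was not counted. On the upstream, feedback and AP-1 target lists 0 genes passed adjustment in edgeR. In controls against baseline 1 of 31, 1 of 18 and 3 of 22 had an unadjusted p under 0.05, beside 4.37% of all genes. HBEGF is on both the upstream and the AP-1 target list and is counted on each.

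The MYC network and MYC targets had no shared direction. Of 12 network genes 6 were higher in controls (median 0.05), and of 25 targets 12 were (median -0.02), with 0 passing adjustment in edgeR on either list and 0 and 2 under an unadjusted 0.05, beside 4.37% of all genes. MAX, the partner of MYC, was at 1370 to 1560 at baseline and 1852 to 3941 at 6 h without overlap (0.84 ± 0.41 SE). FBL, a nucleolar methyltransferase, was at 1348 to 1523 at baseline and 1741 to 5322 in controls (1.15 ± 0.49). POLR1B, a subunit of RNA polymerase I, was lower in every liver at 6 h, at 154 to 1067 against 1108 to 1581. Of the 12 network genes 1 was higher and 0 were lower at 6 h without overlap, and of the 25 targets 0 and 1. Over all genes 3.3% were higher without overlap, and the share lower was not counted.

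Among all tested genes outside the members, those whose log2 level over the 13 libraries was most like the mean of the standardised members were FBP2 (Pearson r = 0.89), DUSP2 (0.88), PHLDA2 (0.84), EGR2 (0.82) and a gene without a symbol, ENSSSCG00000063487 (0.81). For single members the most similar genes were ZFP36L1 for FOS (0.83), RHOB for FOSB (0.89), NUDC for FOSL1 (0.95), FBP2 for JUN (0.86), SOCS1 for JUNB (0.86), SPRY2 for EGR1 (0.83), MCL1 for IER2 (0.87), EGR2 for IER3 (0.88) and UTP25 for MYC (0.96). These are descriptions chosen as the highest of 16481 genes, over libraries that share depth and normalisation. For SOCS1 with JUNB Spearman's rho was 0.46, so the likeness there lay in a few libraries.

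By RefSeq's gene models on Sscrofa11.1, the build used for mapping, matched by symbol, JUNB (chr2:66214086-66219435) and IER2 (chr2:65909638-65912491) lie on the same stretch of chromosome 2. FOSL1 (chr2:6430158-6436173) and EGR1 (chr2:140440829-140445302) are elsewhere on it. FOS (chr7:98449508-98451971) and IER3 (chr7:23265560-23266905) are on chromosome 7, JUN (chr6:153686425-153687635) and FOSB (chr6:51836780-51844531) on chromosome 6, and MYC (chr4:12455141-12460360) on chromosome 4. JUND is annotated at chr2:59530991-59532846. JUNB and IER2 had a correlation of 0.63 over the 11 livers (rho 0.54, permutation adjusted p = 0.150 and 0.254). Without the 2 livers farthest from the median of JUNB, r was 0.04. For JUNB with IER3, on chromosome 7, r was 0.64, and 0.21 without those 2 livers.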

How the data were processed

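Poly-T purified liver RNA gave 13 libraries that do not record strand, so reads of overlapping genes on opposite strands cannot be told apart. The sample labels name a miRNeasy kit and the study's methods a NucleoSpin kit for extraction. The authors removed low-quality reads, used HISAT2 for mapping to Sscrofa11.1 and FeatureCounts for counting, and deposited the raw counts of 35670 genes. Tool versions are not given in the sources used here. Every column carried a sample name found in the labels, and 0 were left without a sample. The smallest chi-square per gene between 2 libraries was 72.1, so no library was a copy of another.

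Tests used R 4.3.3 and edgeR 4.0.16 (filterByExpr, TMM, quasi-likelihood test, Benjamini-Hochberg, threshold 0.05), with the 4 groups in 1 fit of 16481 genes. The study used DESeq2, tried here as an alternative (1.42.0), as was limma 3.58.1. Normalised counts used DESeq2 size factors. Single genes were compared by exact two-sided permutation tests of mean log2(normalised count + 1). The study describes each sequenced liver at 6 h as a separate pig; for the 2 baseline libraries this is not stated, and p-values that use them measure the spread between libraries. The scripts were tested on simulated data.

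The members and lists were chosen with earlier results of these data known. Named were all members, up to 5 genes of each list with the lowest unadjusted p at 6 h against baseline (some are given only in counts), and the genes of highest correlation with a member or the members' mean; the ratios were added after values were seen. Other normalizations, filters, fits, the replicate block and leaving out each library were tried. No sequence is shown, since none was at hand.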

Additional observations from a re-analysis of the deposited data

Results flagged for a closer look

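In each of the 2 infusion groups of 4 livers, Dixon's test compared the gap between the highest or lowest liver and its neighbour with the range of the group, for 9 members, 18 groups in all. The values were untransformed normalised counts. Chance flags about 1 in 20 groups where values are normally distributed, and 3 of 18 exceeded Dixon's critical value at 95% for 4 samples. FOSB in arterial infusion 2 was at 6588 normalised counts, against 23.2 to 1023 in the other 3 livers (ratio 0.848). IER3 in the same liver was at 6598, against 531 to 1441 (0.850). FOSL1 in portal infusion 1 was at 812, against 59.2 to 65.0 (0.992). On log2(normalised count + 1), a scale added after seeing the data, FOSL1 in portal infusion 1 again exceeded it (0.964), and FOSB (0.332) and IER3 (0.604) in arterial infusion 2 did not. On that scale FOS (0.838) and EGR1 (0.832) in portal infusion 3, low in both, also exceeded it, 3 of 18 in all. Arterial infusion 2 had 22% of its counts on mitochondrial genome genes and portal infusion 1 had 13581 genes detected, the fewest of the 13 libraries, and the part of either in these values was not tested. Groups of 3 and of 2 were not examined in this way.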

How the results depend on the processing

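No gene was called in any of the 6 comparisons by the quasi-likelihood test, nor under other normalizations, a minimum of 10 counts in every library, mitochondrial genes left out or any single library left out (0 to 0). DESeq2 over all 13 libraries called 7 genes in controls against baseline, 15 in livers at 6 h against baseline, 1 in infused livers against controls, 4 in portal infusion against controls and 1 in arterial against portal infusion. DESeq2 over the libraries compared called 168 (105 higher, 63 lower) in controls and 15 in livers at 6 h against baseline, and 3 in portal infusion against controls. voom with sample quality weights called 111 at 6 h against baseline. Without a filter on low counts the calls were 30, 28, 19, 11 (arterial against controls), 14 and 5. FOSL1 in controls against baseline was the 1 member called under any of them, by DESeq2 over the libraries compared, in which the median of all genes was 0.11.

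Members whose groups did not overlap ranged, with each library left out, from 3 to 7 in controls against baseline, 1 to 1 at 6 h, 0 to 2 in infused livers and 1 to 6 after portal infusion, and correlated pairs from 2 to 5. Fewer livers separate more easily, and the share of all genes without overlap was not counted with a library left out. Of the alternative values of member fold changes, 604 kept direction and side of the threshold, 1 gained a call and 26 turned direction. voom gave -0.28 for IER3 in controls against baseline, -0.36 for EGR1 and -0.20 for IER3 at 6 h, and -0.88 for FOSL1, 0.18 for IER2 and 0.12 for IER3 in infused livers against controls. With the 3 libraries of fewest genes left out, FOSL1 gave -1.27 there; this setting, and those for the counts without overlap and the ratios, were chosen after seeing the data. Leaving out 1 library gave -0.54 to 0.43 for JUN, -0.015 to 0.32 for EGR1 and -0.51 to 1.05 for IER3 at 6 h, and -0.0063 to 2.63 for FOSB, -0.77 to 0.62 for FOSL1 and -0.24 to 0.35 for MYC in infused livers. The cause was not tested.

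Replicate numbers are shared by the labels of different groups. Over 16 same-numbered pairs the correlation of deviations from the group means was -0.38 to 0.40 (median -0.03). Over 46 other pairs it was -0.50 to 0.40 (median -0.01). The 2 baseline libraries deviate from their mean by equal and opposite amounts, so pairs with them cannot show a link. Between arterial and portal infusion the same-numbered pairs 1 to 4 gave 0.39, 0.26, 0.40 and -0.11, and other pairs -0.50 to 0.32. Whether the numbers pair the samples was not settled. The replicate block called 0 genes in each of the 6 comparisons, and gave 0.11 for JUN at 6 h, and -0.62 for FOSL1 and -0.38 for MYC in infused livers, in a fit in which the median of all genes in portal infusion against controls was -0.17, against -0.02 without the block.

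With 2 baseline livers, FOSL1 rests on 22 and 19 reads there, and 3 against 2 livers cannot give an exact p under 0.1.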
